A study of Tuber borchii with 4 samples.

Results

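In mycelium of the bianchetto truffle *Tuber borchii*, 80 of the 12346 annotated gene models were low only in the maltose-peptone medium. They were chosen by their measured levels in counts per 1000000 counts of a library (CPM). The lowest of the levels in WPG, WPGY and PDB had to be at least 10 CPM and at least 3 times the level in MPY, and the level in PDB had to be less than 3-fold apart from the mean of WPG and WPGY. The values in all 4 media were thus used in the choice, so they are given as a description with no test. Gene models are called by the protein ID (the number) of the Tubbor1 assembly of strain Tbo3840, and each position refers to a numbered sequence of that assembly.

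The strain SP1, a single isolate, was grown in static submerged culture in the dark at 22 °C, and 1 RNA-seq library was made for each of 4 media. WPG is a woody plant salt medium with 20 g/L glucose, and WPGY is the same medium with 5 g/L yeast extract added. Both were labelled as harvested on day 65. PDB is potato dextrose broth at 20 g/L and MPY holds maltose at 35 g/L with peptone and yeast extract, each at 5 g/L, and these cultures were labelled day 85. The headers of the count files give day 64 for WPG and WPGY, day 85 for PDB and day 83 for MPY. With 1 library per medium there was no replicate check, and an effect of the MPY medium cannot be told apart from one of its culture, harvest or library. The intervals below are at 95% and cover counting error only.

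Maltose is a disaccharide of glucose, and peptone is a mixture of peptides and amino acids released from protein by digestion. A fungus fed such a mixture can take up nitrogen and carbon already built into amino acids. With glucose and mineral salts alone it has to make its amino acids itself. Of the media used here, the latter describes WPG only, since WPGY also held yeast extract and PDB is a potato broth. Filamentous fungi set the mRNA of many transporters, secreted enzymes and catabolic enzymes by the carbon and nitrogen source, and genes of one pathway can lie side by side in the genome.

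The 4 libraries held 47969567 (MPY) to 157335190 (PDB) counts in gene models, so 1 count was 0.0208 CPM in MPY and 0.00636 to 0.00859 CPM in the others. No chosen model was at the floor of 3 counts in MPY, which is 0.0625 CPM. The lowest MPY count was 8, and 72 of the 80 models had at least 100 counts there. No chosen model was among the 23 genes that made up the 10 highest of any library.

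The 80 models lay further down the ranking in MPY than in the other 3 media, as the rule requires. Their median level was 66.3 CPM in WPG, 64.0 CPM in WPGY and 63.4 CPM in PDB, against 11.1 CPM in MPY. Their median rank by CPM among all models, with no correction for length, was 3600 in WPG and 3797 in PDB, and 6639.5 in MPY. Most stayed clearly transcribed in MPY, where only 4 models were under 1 CPM, 39 were under 10 CPM and 5 were at 100 CPM or more. The median of log2(MPY / lowest of the other media) was −2.14 over the 80 models and 0.15 over the 6520 models that had at least 10 CPM in each of WPG, WPGY and PDB.

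**Figure D1:**
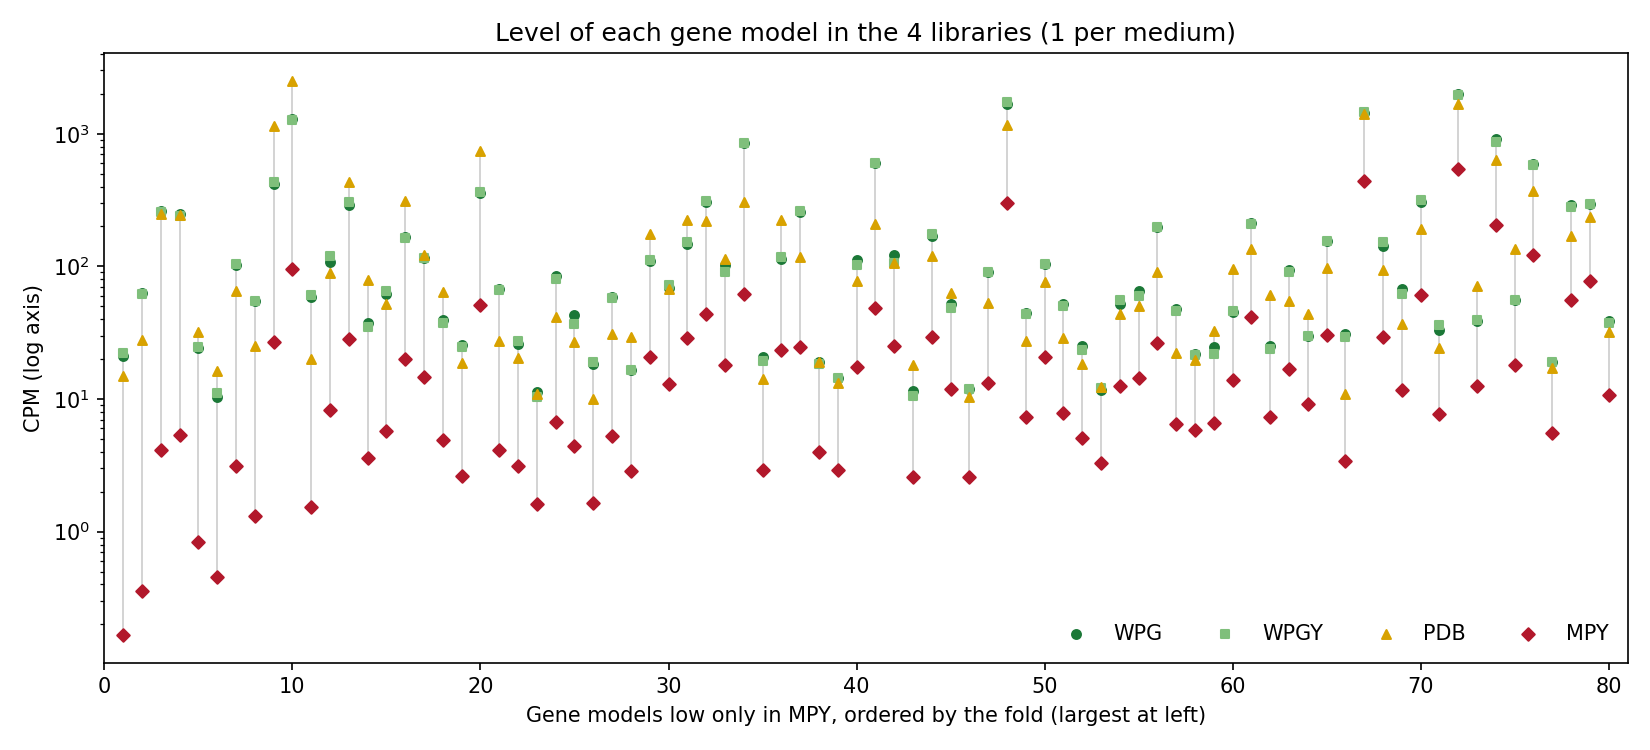
Level of each of the 80 gene models in each medium, in CPM on a log axis, with the models in order of the fold, largest at left. Each model has 1 marker per medium, and a grey bar runs from MPY to its highest medium. The MPY marker is the lowest for every model, as the rule requires, and the median in MPY is 11.1 CPM.

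Of the 6520 models tested, 90 (1.38%) had an MPY level at least 3-fold under the lowest of the other 3, and the limit on PDB left the 80 (1.23%). In the opposite direction, 179 of 6748 models (2.65%) were at least 3-fold higher in MPY than in the highest of the other media. These 6748 had at least 10 CPM in MPY, with no minimum in the other media, so the percentages are not directly comparable. Among the same 6520 models, 106 were higher in MPY in this way, beside the 90 that were lower. A level in PDB at least 3-fold under each of the other 3 was less frequent and was seen in 45 of 6470 models (0.696%). Taken against a single medium, an MPY level at least 3-fold lower was seen in 5.96% of the models with at least 10 CPM in WPG, in 5.72% of those in WPGY and in 4.14% of those in PDB. These percentages set the scale of the group and are given with no test.

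The fold between the lowest of the 3 media and MPY ran from 3.002 to 89.9, with a median of 4.39. It was at least 20-fold in 7 models, at least 10-fold in 13 and at least 5-fold in 31, whereas 34 models were under 4-fold. Of all models tested, 0.537% were at least 5-fold lower. Many of the group therefore sat close to the limit, with a short tail of models nearly silent in MPY. The lower end of the counting interval of the fold was under 3 in 15 models.

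**Figure D2:**
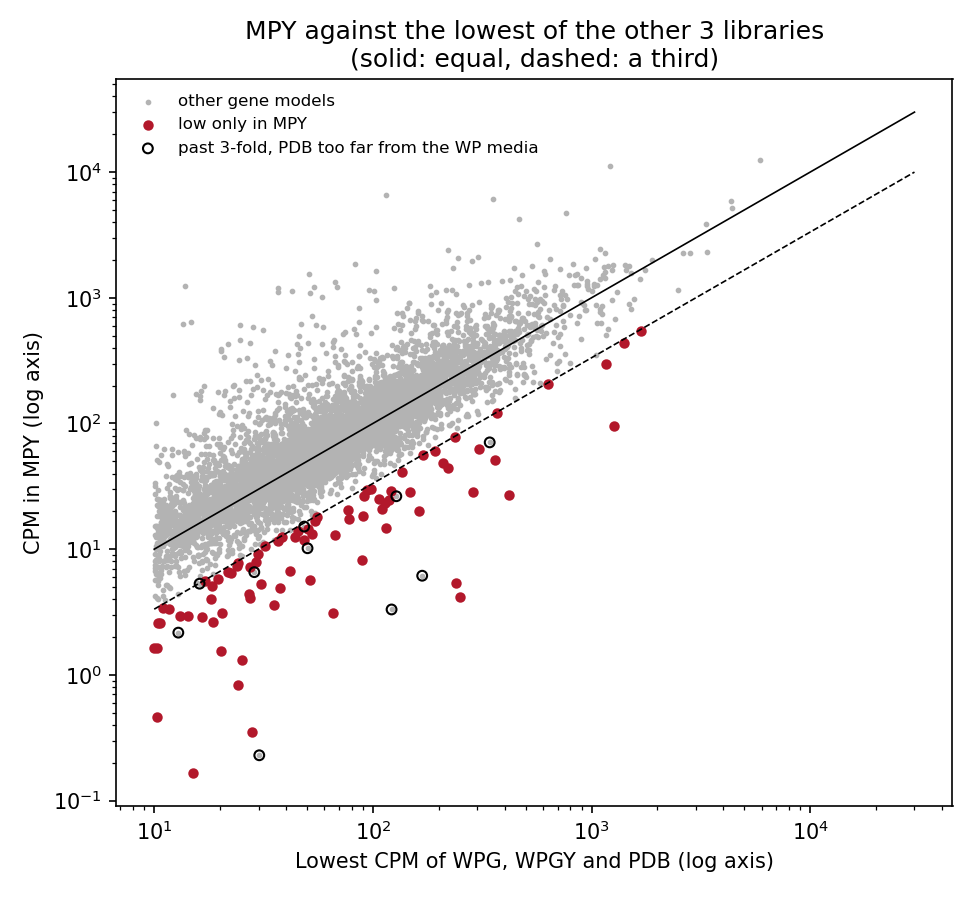
Level in MPY against the lowest level in WPG, WPGY and PDB for the gene models tested, both in CPM on log axes, with the 80 chosen models marked. The chosen models lie on or below the 3-fold line, and 4 of them are under 1 CPM in MPY.

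Together the 80 models took 1.64% of the counts in WPG, 1.64% in WPGY and 1.58% in PDB, against 0.285% in MPY (exact binomial interval 0.283% to 0.286%). The share was thus 5.77 times as large in WPG as in MPY, 5.75 times in WPGY and 5.56 times in PDB. Models 1166790, 1157616, 1098756 and 1095732 held 0.640% of the counts in WPG and 0.138% in MPY. The other 76 models held 1.00% in WPG and 0.146% in MPY, a ratio of 6.84. Since each model was chosen at 3-fold or more, a ratio above 3 was fixed by the choice.

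The largest fold between the lowest medium and MPY was that of model 962089 (sequence 6, positions 115817 to 117790), with 21.2 CPM in WPG, 22.3 in WPGY and 15.0 in PDB, against 0.167 in MPY. Only 8 counts stood behind the MPY level, and the fold of 89.9 over MPY had an interval of 45.6 to 208. Model 1077074 (sequence 44, positions 227187 to 229555) was at 62.8, 61.8, 27.9 and 0.354 CPM in WPG, WPGY, PDB and MPY. Its MPY level rested on 17 counts and lay 78.8-fold under PDB (49.2 to 135), and the intervals of the 2 models overlap. Against the mean of WPG and WPGY, model 1077074 had the larger fold, 176 against 130.4. Both models were therefore close to the detection limit in MPY while being readily counted in the other media. Their function is not given in the annotation used here.

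Models 652823 and 652836, which lie near each other on sequence 50, had almost the same profile. Model 652823 was at 262 CPM in WPG, 256 in WPGY and 249 in PDB, against 4.13 in MPY, 60.3-fold under the lowest (52.5 to 69.7). Model 652836 was at 246, 239, 242 and 5.34 CPM in the same order, 44.8-fold under the lowest (39.6 to 50.8). The similarity of their sequences was not examined, so whether they share reads was not tested. In both, WPG, WPGY and PDB lay close together, and the MPY library alone stood apart.

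Model 1095734 was at 24.2 CPM in WPG, 24.7 in WPGY and 31.8 in PDB, against 0.834 in MPY, from 40 counts, with a fold of 29.1 (21.3 to 40.8). Model 1045457 (sequence 74, positions 30643 to 33047) was at 10.3, 11.1, 16.2 and 0.459 CPM, and its 22 counts in MPY gave a fold of 22.4 (14.7 to 35.9). It was close to the minimum of 10 CPM and left the group under 4 of 5 other scalings of the libraries. In one of these, with counts scaled by gene span, it was at 5.73 in WPG, well under the limit of 10. Model 986925 (sequence 152, positions 107345 to 109451) was at 103 CPM in WPG, 105 in WPGY and 65.6 in PDB, against 3.13 in MPY, a fold of 21.0 (17.9 to 24.8).

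Among the 10 largest folds, 2 models were also among the 10 with the highest mean CPM, and in both PDB was the highest medium. Model 1095732 (sequence 410, positions 35368 to 36128) was at 1285 CPM in WPG, 1273 in WPGY and 2513 in PDB, against 95.1 in MPY. The fold over MPY was 13.4 from WPGY (13.0 to 13.8) and 26.4 from PDB. Model 1130570 (sequence 210, positions 70136 to 70670) was at 421 CPM in WPG, 432 in WPGY and 1146 in PDB, against 26.98 in MPY. Its fold over MPY was 15.6 from WPG (14.8 to 16.5) and 42.5 from PDB.

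CPM does not account for gene length, so for the order of the 10 models with the highest mean CPM over WPG, WPGY and PDB each count was scaled by gene span (introns included) and brought to a sum of 1000000 per library. On this length-scaled scale, model 1166790 was the highest of the 10 in WPG, at 3082, with rank 21 of all models, and in MPY it was at 912 with rank 139. Model 1193298 followed at 2799 in WPG (rank 25) and 681 in MPY (rank 208). Model 1095732 had rank 30 in WPG, rank 9 in PDB and rank 1112 in MPY. Model 1130570 had rank 93 in WPG, rank 21 in PDB and rank 2912 in MPY. The order of these genes thus differed between PDB and the woody plant media, and in MPY the genes with the larger folds came far down the ranking.

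In CPM, model 1166790 was at 2008 in WPG, 1946 in WPGY and 1690 in PDB, against 545 in MPY, a fold of 3.10 (3.06 to 3.14). Model 1157616 (sequence 288, positions 92389 to 94101) was at 1682, 1728, 1168 and 300.0 CPM, a fold of 3.89 (3.83 to 3.96). Model 1098756 (sequence 16, positions 153923 to 155420) was at 1423, 1458, 1407 and 440 CPM, a fold of 3.19 (3.15 to 3.24). These 3 kept a high level in MPY and were low there only in relation to the other media. The fold of model 1098756 went as low as 2.93 under another scaling, and the model stayed in the group under only 2 of 5 other scalings.

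Models 1193298 and 1069399 were also close to the limit. Model 1193298 (sequence 118) was at 919, 874, 630.0 and 205 CPM in WPG, WPGY, PDB and MPY, a fold of 3.07 (3.01 to 3.14). Model 1069399 (sequence 446) was at 593, 583, 371 and 121 CPM, a fold of 3.06, and it stayed in the group under 3 of 5 other scalings. Models 1100862 and 977687 differed from them in that PDB lay between the woody plant media and MPY. Model 1100862 (sequence 94) was at 857, 853, 305 and 62.1 CPM, and model 977687 (sequence 81) at 599, 607, 209 and 48.7 CPM.

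The supplementary annotation of the study, of which a shortened sheet was used here, covered 827 gene models, 10 of the 80 among them, and named a function for 5 of the 80. These 5 were an aminotransferase, a pair of nucleases and a pair of flavin-dependent oxidoreductases. The remaining 75 are described by their values only.

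Alanine aminotransferase (ALT1, ID 963452, sequence 11, positions 28186 to 29739) moves the amino group between alanine and 2-oxoglutarate, giving pyruvate and glutamate. It was at 360 CPM in WPG, 364 in WPGY and 744 in PDB, against 51.0 in MPY. The fold between WPG and MPY was 7.06 (6.78 to 7.36), and PDB was 2.06 times the mean of the woody plant media. In the list of genes for nitrogen assimilation and amino acid metabolism, 1 of 17 tested models was in the group, against 1.23% of all tested, and the median log2(MPY / lowest of the other media) was 0.05, against 0.15. The words searched for that list also took in protein kinases and phosphatases. In a list trimmed after the values were seen to 7 enzymes of amino acid metabolism, the median was −0.23, and 4 of 7 were below the lowest of the other media, as were 40.6% of all tested.

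Other enzymes of that list had quite different profiles from alanine aminotransferase. Glutamine synthetase (ID 1070290), which joins ammonium to glutamate, was at 22.7 CPM in WPG, 24.2 in WPGY and 17.3 in PDB, against 8.42 in MPY, lowest in MPY but not by 3-fold. Aspartate aminotransferase (ID 1101039), which moves the amino group between aspartate and 2-oxoglutarate, was at 500, 495, 651 and 653 CPM. Arginase (ID 1082990), which splits arginine into ornithine and urea, was at 204, 199, 792 and 797 CPM. Of these enzymes, only alanine aminotransferase was both highest in PDB and lowest in MPY.

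The model of the ribonuclease T2 family (RBT7, ID 1192971, sequence 103, positions 128601 to 130190) belongs to a family of RNA-cleaving enzymes that are secreted or vacuolar in fungi. It was at 55.0 CPM in WPG, 54.6 in WPGY and 25.3 in PDB, against 1.31 in MPY. With 63 counts in MPY, the level there was 19.2-fold under PDB (15.0 to 25.1), the largest fold among the 5 annotated models. An endonuclease (ID 911556, sequence 114, positions 147674 to 149084) was at 112, 102, 77.7 and 17.3 CPM, a fold of 4.49 (4.19 to 4.83). Both nucleases were highest in the woody plant media, lower in PDB and lowest in MPY.

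The list of nucleases held 8 tested models, of which these 2 were in the group, where 1.23% of all tested models were. Its median log2(MPY / lowest of the other media) was −0.30, against 0.15 over all tested. The words searched also took in an RNA-binding protein (ID 1070029) that is no nuclease. The other 6 did not pass 3-fold. A TatD-related DNase (ID 1013991) was at 153, 150.5, 180.4 and 80.7 CPM, and the structure-specific endonuclease MUS81 (ID 1082637), which acts on branched DNA, was at 48.8, 49.7, 39.9 and 69.9 CPM. The nucleases therefore did not share one profile.

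Enzymes of the glucose-methanol-choline (GMC) family use a flavin to oxidise alcohols or sugars, and 2 of them were in the group. Model 1188961 (sequence 1, positions 463128 to 465806), described as a GMC oxidoreductase, was at 18.4 CPM in WPG, 19.1 in WPGY and 10.03 in PDB, against 1.65 in MPY, a fold of 6.09 (4.86 to 7.73). Model 1126194 (sequence 108, positions 187785 to 191950), also described as a glucose-methanol-choline oxidoreductase, was at 142, 152, 94.4 and 29.6 CPM, a fold of 3.19 (3.02 to 3.37). Both had the order WPGY, WPG, PDB and MPY from highest to lowest. Model 1188961 was the model nearest to the 10 CPM minimum and left the group under 1 of 5 other scalings.

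The list of redox enzymes that holds these models had 7 tested models, 2 of them in the group, against 1.23% of all tested. Its median log2(MPY / lowest of the other media) was 0.30, against 0.15 over all tested, and it also took in a thioredoxin binding protein (ID 980869) that is no redox enzyme. A peroxidase (CCP1, ID 64849) was at 753, 741, 592 and 611 CPM in WPG, WPGY, PDB and MPY. A glutathione S-transferase (ID 981048) was at 38.4, 34.9, 95.5 and 86.1 CPM. The low MPY level was thus seen in the GMC models and not in these other redox enzymes.

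Of the 20 gene lists made from the annotation, 16 had tested models but no chosen one, and 1 (glycolysis and gluconeogenesis) had no tested model. Over all tested models, 1.23% were in the group. They included the lists for sugar uptake, amino acid and peptide uptake, carbohydrate-active enzymes, peptidases, ribosomal proteins and chaperones, of which 1, 2, 6, 3, 14 and 7 models respectively were tested. All 23 transcription factor models tested were outside the group, and their median log2(MPY / lowest of the other media) was 0.40. These lists were short because the annotation used here covered few models, and nothing follows from them for the models without an annotation.

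The woody plant media gave nearly the same level for most of the group. The ratio of WPGY to WPG ran from 0.858 to 1.11 with a median of 0.995, and 75 of the 80 models (93.8%) were within 1.1 times, against 90.9% of the 6520 tested.

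PDB, in contrast, divided the group. It was above the mean of WPG and WPGY in 26 of the 80 models (32.5%) and below it in 54, whereas it was above in 51.9% of all tested models. The ratio of PDB to that mean ran from 0.338 to 2.69, with a median of 0.805 against 1.02 over all tested. Its quartiles were 0.628 and 1.27 in the group, and 0.786 and 1.32 over all tested. The rule held this ratio within 3-fold and also used PDB in the fold limit, whereas the tested models had no such bound. The range and these contrasts were thus partly set by the choice. The ratio was at least 1.5 in 16 models, at most 1/1.5 in 25 and between these in 39. PDB was the lowest of the 3 media in 53 models and so was the medium that set their fold. For these counts, and for those at 2-fold below, the share over all tested models was not computed. They describe the group only.

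**Figure D3:**
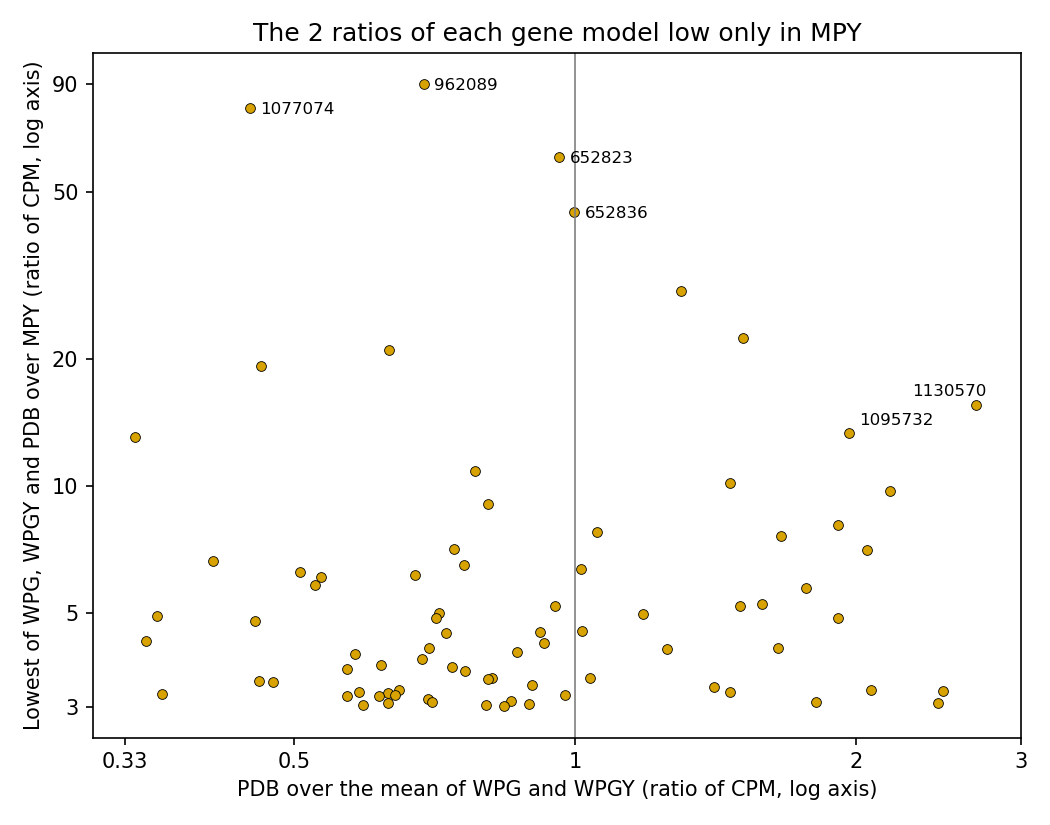
Ratio of the PDB level to the mean of WPG and WPGY against the fold between the lowest of the 3 media and MPY, both on log axes, for the 80 models. The models spread from 0.338 to 2.69 on the PDB ratio, and models with large folds stand on both sides of 1.

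In 6 models the PDB level was at least 2 times the mean of the woody plant media. Besides 1130570 (ratio 2.69), 1095731 (2.17) and alanine aminotransferase, these were 680055, 1071423 and 995890, named after their values were seen. Model 680055 was at 25.1 CPM in WPG, 23.9 in WPGY and 60.6 in PDB, against 7.32 in MPY. Model 1071423 was at 55.4, 55.8, 136 and 18.1 CPM. Model 995890 was at 45.6, 45.9, 94.98 and 13.9 CPM. In these models the range from PDB to MPY was wider than the fold that chose them, at 8.28, 7.53 and 6.85 times.

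In 10 models the PDB level was at most 1/2 of the mean of the woody plant media, so that PDB stood between these media and MPY. Model 1077074 and the ribonuclease T2 model, both among the 10 largest folds, were of this kind, with ratios of 0.45 and 0.46. Model 1071759, named after its values were seen, was at 58.4 CPM in WPG, 61.0 in WPGY and 20.2 in PDB, against 1.54 in MPY. It was 38.7-fold lower in MPY than in the mean of the woody plant media and 13.1-fold lower than in PDB. Such models were low in MPY in all comparisons, but not at one shared level in the other media.

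Of the 80 models, 14 (17.5%) lay next to another of the 80 on the assembly, in 6 runs. For comparison, 2 of 35 models (5.71%) low only in PDB, chosen by the same limits with PDB and MPY exchanged, and 27 of 179 (15.1%) high only in MPY lay next to another of their own kind. A larger group has more members to lie next to, so these percentages cannot be set directly against one another. Of all other models among the 12346, 138 lay next to a chosen one. The 80 models were spread over 54 of 617 sequences, and 35 of them were the only one on their sequence.

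**Figure D4:**
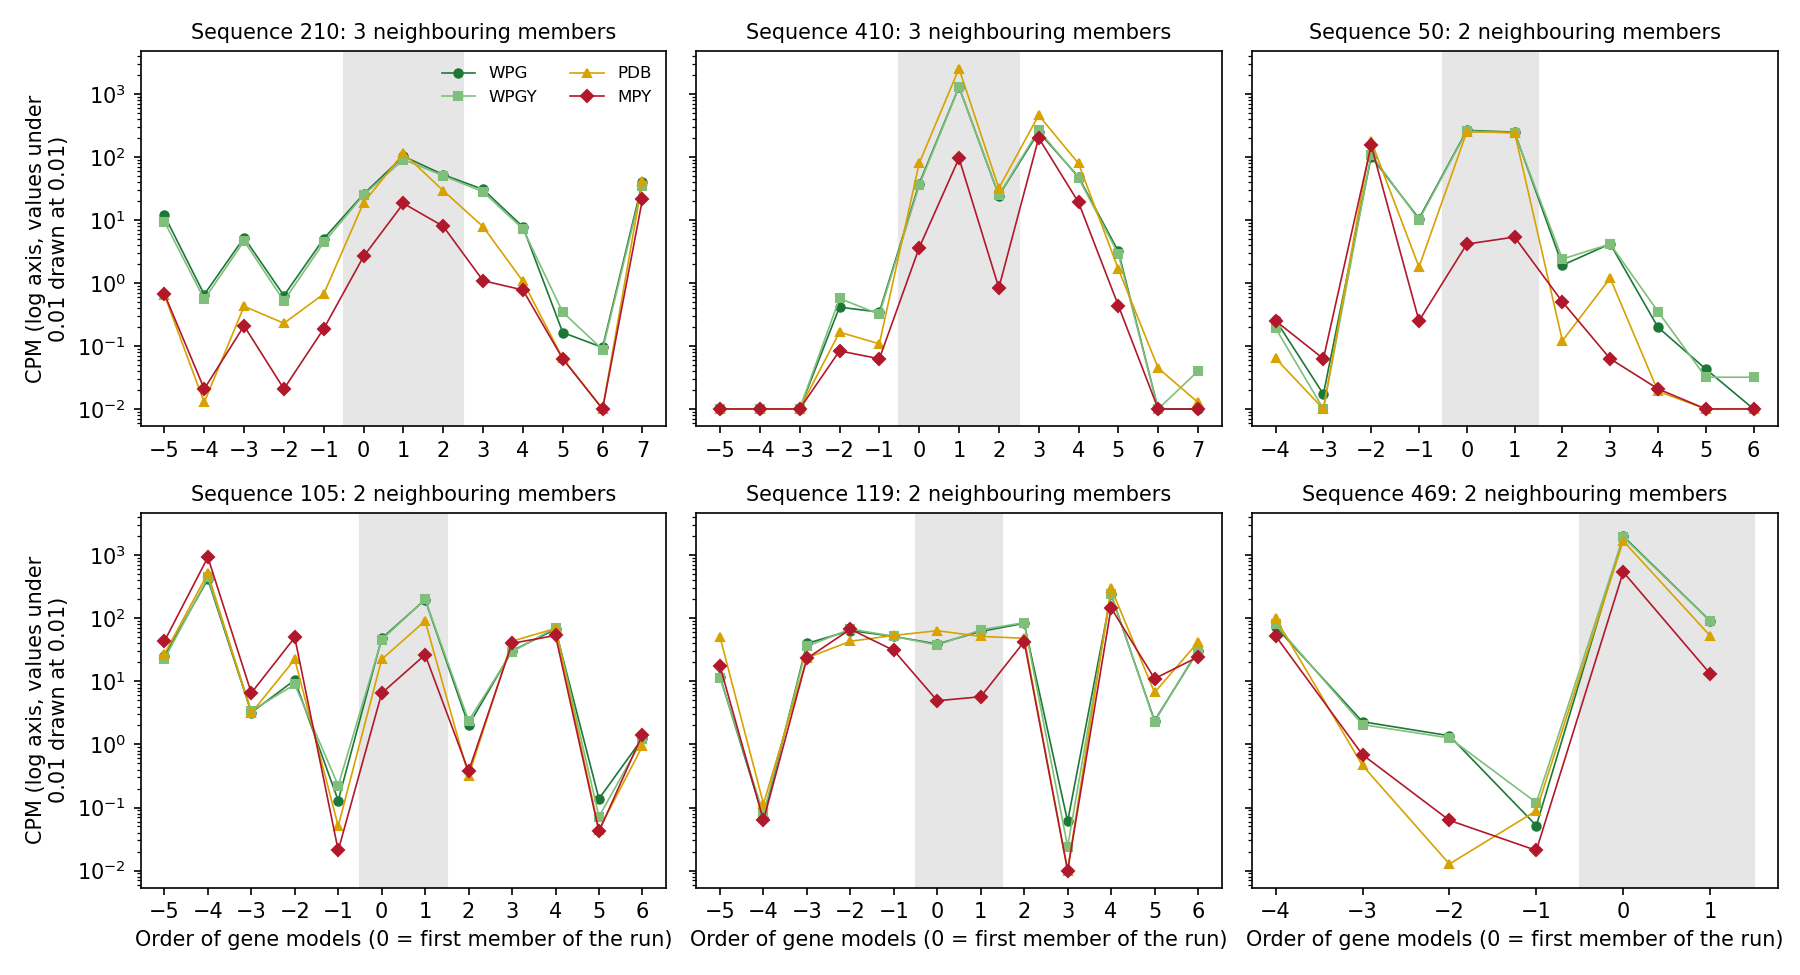
Levels in the 4 media, in CPM on a log axis, of the 14 gene models that lie next to another model of the group, arranged by their 6 runs. The models of each run are shaded, and up to 5 models on either side are drawn as well. Each shaded model is lowest in MPY, which the rule requires and which does not hold for all models outside the shading. In some runs the models differ in level and in whether PDB or the woody plant media are highest.

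The run on sequence 410, positions 33325 to 38318, held 3 models, 1095731, 1095732 and 1095734, separated by 1420 and 933 bp. Model 1095731 was at 37.4 CPM in WPG, 35.2 in WPGY and 78.8 in PDB, against 3.61 in MPY, a fold of 9.75. All 3 were highest in PDB, and their folds were from 9.75 to 29.1. On one side the next model, 1069239, was hardly transcribed, with 0.11 to 0.34 CPM in WPG, WPGY and PDB. On the other side model 1095739 was at 248 CPM in WPG, 266 in WPGY and 456 in PDB, against 199 in MPY, so the low MPY level did not extend to it at the same size. Beyond it, model 574963 was at 47.9, 46.3, 78.5 and 18.9 CPM in WPG, WPGY, PDB and MPY, a fold of 2.44. Model 1095743 followed at 3.17, 2.87, 1.66 and 0.438 CPM, a fold of 3.79. The fold thus fell to 1.25 at model 1095739, directly beside the run, and was larger again in the models beyond it.

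The run on sequence 210, positions 112337 to 118790, held models 1089424, 1089425 and 1067083, with gaps of 999 and 1420 bp. Model 1089424 was at 25.6, 24.7, 18.7 and 2.63 CPM in WPG, WPGY, PDB and MPY, a fold of 7.11. Model 1089425 was at 102, 90.4, 114 and 18.2 CPM, a fold of 4.96, and model 1067083 was at 52.0, 50.1, 29.1 and 7.90 CPM, a fold of 3.68. The models on both sides of the run had the same lowest medium but were under 10 CPM in PDB, with 0.667 CPM in PDB and 0.188 in MPY for 1089422 and 7.78 and 1.08 CPM for 1067084. Model 1067084 was 26.9-fold lower in MPY than in the mean of WPG and WPGY. Both flanking models were also more than 3-fold lower in PDB than in the mean of WPG and WPGY, by 7.04 and 3.75 times, and so were outside the limit on PDB as well.

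Models 652823 and 652836 on sequence 50 formed a run with a gap of 8358 bp. The next model on one side, 972569, was at 10.5 CPM in WPG, 9.96 in WPGY and 1.79 in PDB, against 0.250 in MPY. On the other side 1020301 was at 1.91, 2.39, 0.121 and 0.500 CPM, so it was lowest in PDB.

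On sequence 119, models 983244 and 983263 were 2258 bp apart. Model 983244 was at 39.2 CPM in WPG, 37.7 in WPGY and 63.8 in PDB, against 4.94 in MPY, a fold of 7.63. Model 983263 was at 62.2, 65.8, 51.7 and 5.71 CPM, a fold of 9.05. The models on both sides were less different between media, with 51.7, 51.9, 53.6 and 31.0 CPM for 983237 and 83.3, 85.5, 48.4 and 42.8 CPM for 983224.

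On sequence 105, model 1083079 was at 48.1, 46.0, 22.4 and 6.504 CPM and model 1101134 was at 198, 199, 91.3 and 26.5 CPM. Their folds of 3.44 and 3.45 and their PDB ratios of 0.48 and 0.46 were nearly the same. On sequence 469, model 1166790 was followed after 970 bp by 1036285, at 91.2, 90.6, 52.9 and 13.2 CPM, a fold of 3.999. Here the neighbours differed in fold.

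Outside the group, 138 other models were next to a chosen one and 58 of them had at least 10 CPM in WPG, WPGY and PDB. Of these, 29 were below the lowest of the other media in MPY and 5 (8.62%) were at most 1/2 of it, against 40.6% and 4.45% of all tested models. Their median log2(MPY / lowest of the other media) was −0.00, against 0.15 over all tested. How reads were assigned to a strand is not given in the sources used here, and 2 chosen models, 1027707 and 1005501, overlap another model by 302 and 114 bp, so their counts are uncertain. The 14 models of the runs do not overlap another model.

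The limits divided models of nearly the same values. Just inside 3-fold were 1084264 (fold 3.002), 1103792 (3.02) and 1099975 (3.03), and just outside were 1095568 (2.98), 1025325 (2.97) and 1126546 (2.95), the last annotated as a cell wall biogenesis protein. Model 1095568 was at 1089.6 CPM in WPG, 1049 in WPGY and 1987 in PDB, against 352 in MPY. At the 10 CPM minimum, 1188961 (10.03 CPM in its lowest medium), 1045457 (10.3) and 79161 (10.3) were inside, and 935526 (9.94), 194621 (9.60) and 1127746 (9.12) were outside. At the limit on PDB, 1071759 (2.96-fold apart), 977687 (2.88) and 1100862 (2.80) were inside, and 1091130 (3.03), 1120480 (3.18) and 1038174 (3.20) were outside.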

How the data were processed

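RNA of *T. borchii* SP1 mycelium was measured by RNA-seq in 4 media, 1 library each. The authors trimmed the reads with Trimmomatic after FastQC, mapped them to Tubbor1 with STAR and deposited featureCounts counts for 12346 gene models, without normalization. Strand and multi-mapping settings are not given in the sources used here. The TPM values of the study, from kallisto, were not used. Groups follow the medium in the sample labels.

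Here each count was divided by the library total and multiplied by 1000000 (CPM), without a pseudocount. Intervals are exact Poisson for a level, exact conditional binomial for a fold and exact binomial (Clopper-Pearson) for a share. No test between media was made. Functions came from the study's annotation and spans from the RefSeq table of the Tubbor1 assembly. Named models are the 10 largest folds, the 10 highest means over WPG, WPGY and PDB, the annotated models of the gene lists, the runs of neighbours and the 3 models on each side of each limit. The models and the lists were chosen with earlier results of these data known. On simulated data, 200 of 200 models made 8-fold lower in MPY were recovered, with 0 others, among 12346. The simulated media shared the same profile with counting noise only, and the lowered models lay well above the 10 CPM minimum. That outcome checks that the rule was coded as stated and gives no rate of false calls in these data. The alternatives were other limits, pseudocounts, scalings, length-scaled counts and thinning to the MPY depth. TMM factors came from edgeR 4.0.16, intervals from scipy 1.17.1 and figures from matplotlib 3.10.9, run under Python 3.11.15.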

Additional observations from a re-analysis of the deposited data

How the results depend on the processing

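The number of models depended most on the limits. It was 80 as reported, 271 with a 2-fold limit, 31 with a 5-fold limit and 329 with no minimum level beyond 1 count. It stayed between 64 and 99 with a minimum of 5 or 20 CPM, a 2-fold or no limit on PDB, and pseudocounts of 0.1 and 1. Of the 80, 67 were found again with median-of-ratios scaling, 71 with TMM, 74 with totals without the 10 highest genes, 67 with length-scaled counts and 79 after thinning, and 59 were found under all 5. MPY was shifted by 0.076 (median-of-ratios) and 0.061 (TMM) on the log2 scale. For the named models, 33 were counted: those named by fold, mean, annotation, run or the 3-fold limit. Of these, 27 stayed in the group with median-of-ratios scaling, 27 with TMM and 30 with length-scaled counts. Of the other named models of the group, 79161, 680055, 1071423, 995890 and 1027707 left it with median-of-ratios scaling, and 1071759 and 1005501 stayed. The median log2 value stayed between −2.15 and −1.99 in all 7 alternatives run. Without the 10 highest genes in the totals, the share of the group was 1.85% in WPG, 1.84% in WPGY and 1.69% in PDB, against 0.308% in MPY, and with length-scaled counts it was 2.17%, 2.17%, 2.35% and 0.387%. The alternatives with WPG alone (81 models) or WPGY alone (80 models) in place of their mean, and the shares without the 4 highest models, were chosen after seeing the data. No paired analysis was possible because each medium has 1 library. Counting error left the lower limit of the fold under 3 in 15 models and was widest for the models with few counts in MPY, and the spread between cultures is unknown.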

Other observations

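The limit on PDB left out 10 models that were at least 3-fold lower in MPY than in every other medium, 7 of them lower and 3 higher in PDB than in the woody plant media. Among them was the model with the largest fold of all tested models. Model 993248 was at 785 CPM in WPG, 789 in WPGY and 30.2 in PDB, against 0.229 in MPY, where it had 11 counts, a fold of 132 under PDB (73.6 to 264). Model 1089697 was at 1703, 1675, 122 and 3.31 CPM in the same order. In both, PDB was already far under the woody plant media. Model 1103054 had the opposite order, at 170 CPM in WPG, 168 in WPGY and 3750 in PDB, against 6.15 in MPY. No function is given for these 3 models in the annotation used here, and they were named after their values were seen.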
